A study of Populus euphratica with 12 samples.

Results

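Ovate leaves were compared with linear leaves of Populus euphratica, a desert poplar that bears leaves of different shapes (heterophylls) on trees of different age. The comparison, written Ov/Li, took 6 of the 12 small RNA samples of the study. They were chosen by their labels alone, 3 ovate (Ov1, Ov2 and Ov3, from trees 8 to 12 years old) and 3 linear (Li1, Li2 and Li3, from trees 0 to 3 years old). The other samples were lanceolate (La, trees 4 to 6 years old) and broad-ovate (Bo, trees over 20 years old) leaves, with 3 samples each. Every sample was the second juvenile leaf of buds, with no treatment and no genetic change named. Leaf type and tree age cannot be told apart, since no Li sample came from a tree as old as the Ov trees. The labels call the samples biological replicates without saying that they came from separate trees, so the P values measure the spread between these samples. The RNA came from whole leaves, in which fewer cells of a type and less RNA per cell cannot be told apart.

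Plant miRNAs are short RNAs cut from hairpin precursors by a Dicer-like enzyme. They guide an Argonaute protein to mRNAs with a nearly complementary site, and these mRNAs are then cut or translated less. Many families are shared by most land plants and target regulators of leaf development, among them SPL, AP2-like, TCP, HD-ZIP III, growth-regulating and auxin response factors, while others target genes of mineral nutrition. Roles given for conserved families below are known mostly from Arabidopsis. No target mRNA was measured here. A hairpin can leave a mature miRNA and, from its other arm, a less abundant star sequence. The functional lists below were drawn by family name, so both arms of a precursor count in them. Whether the role given for a list holds for each arm was not examined.

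The files listed 257 miRNAs, of which 166 carried database names, 52 were predicted mature miRNAs and 39 were predicted star sequences. Names are given without the prefix ptc-. The deposited unit is RPM, the reads of a miRNA scaled to the same total of listed miRNA reads in each sample, and every value was a whole multiple of the value of 1 read. The depth behind the Li samples was 296164 to 427662 reads, and that behind the Ov samples 297588 to 632114 reads. One read stood for 1.58 RPM in Ov1, the deepest sample, and for 3.38 RPM in Li1, the shallowest. Where no read was found, the true level could still reach 4.75 RPM in Ov1 and 10.1 RPM in Li1, taken as 3 reads and covering counting error only. Among the 257 miRNAs, 240 had a read in at least 1 of the 6 samples and 155 in all 6. Tested were the 215 whose mean over these 6 samples reached 1 RPM. A few sequences held most reads: miR159a took 35.5% on average, miR166a 12.5%, and the 10 most abundant together 77.9%.

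Differences were tested with limma on log2(RPM + 1), and log2 fold changes are Ov minus Li on that scale. For miRNAs with few reads they depend on the added 1 and can come out smaller or larger than the ratio of the means. A miRNA was called where its Benjamini-Hochberg adjusted p over the 215 miRNAs was under 0.05. In Ov/Li 7 miRNAs were called, 3.26% of those tested, 4 higher (1.86%) and 3 lower (1.40%) in Ov. Under the unadjusted threshold of P 0.05, 51 miRNAs (23.7%) passed, 30 higher (14.0%) and 21 lower (9.77%). The 3 Ov values all lay on 1 side of the 3 Li values for 59 miRNAs (27.4%), 32 higher (14.9%) and 27 lower (12.6%). Counts at the unadjusted threshold include the called miRNAs throughout. Over all tested miRNAs the median log2 fold change was -0.01. The called count depended on single libraries, being 12 without Li1 and 2 without Li2, without Ov2 or without Ov3. Scaled to a total without miR159a it was 3, of which 1 was higher and 2 were lower. Exact 2-sided permutation tests of 3 against 3 samples cannot go below p of 0.10, so none was run for single miRNAs. Where leaving out 1 sample changed whether a miRNA passed a threshold, the sample is named below with the log2 fold change without it, in parentheses; for the called miRNAs the adjusted p is given too.

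**Figure D1:**
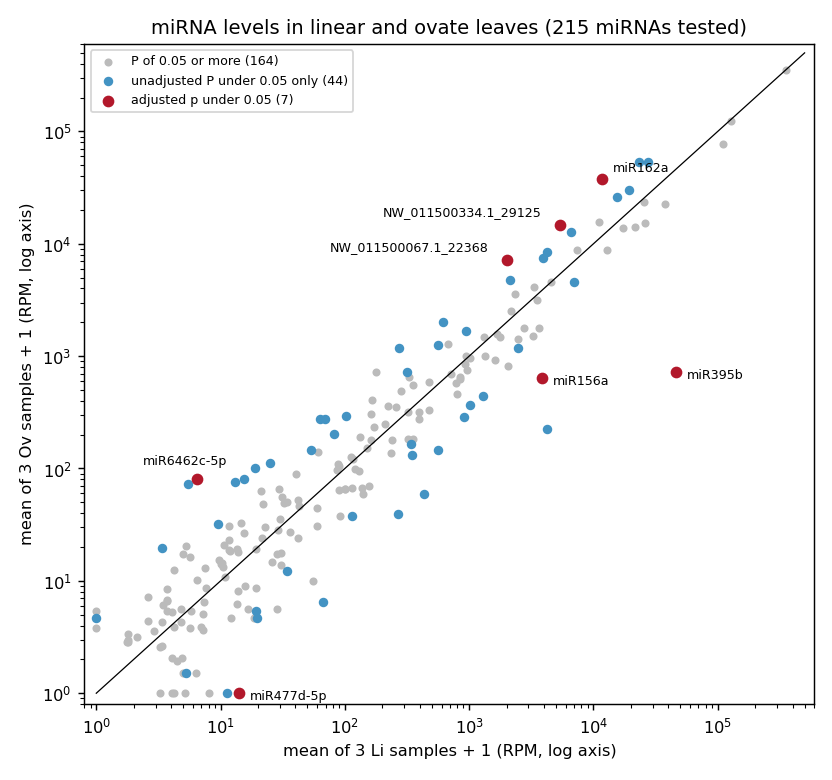
Mean level of each of the 215 tested miRNAs in the 3 Li samples (x axis) and in the 3 Ov samples (y axis), in RPM + 1 on log axes, with the line of equal levels. Red points mark the 7 called miRNAs, blue points the 44 that passed the unadjusted threshold only, and grey points the other 164; miR395b lies farthest below the line among the abundant miRNAs.

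The sulfate family miR395 had the lowest log2 fold change of all tested miRNAs. It targets ATP sulfurylases and a sulfate transporter, and in Arabidopsis it accumulates when sulfate is scarce. The level of miR395b was 9775 RPM in Li1, 64462 in Li2 and 63873 in Li3, against 830.5 in Ov1, 672.1 in Ov2 and 653.1 in Ov3. The groups were far apart, and Li1 stood well below the other Li samples while the Ov samples were close together. The mean fell from 46037 ± 31405 RPM (SD, n = 3) in Li to 718.6 ± 97.4 RPM (SD, n = 3) in Ov, a 64.1-fold lower mean. The log2 fold change was -5.58 (SE 0.62, limma adjusted p = 0.00011). The read counts behind it were 2895 to 27568 in Li and 200 to 525 in Ov, so depth did not limit this difference. Without Li1 the log2 fold change was -6.49, and without any other 1 sample -5.69 to -5.13. It passed under all 16 alternatives that kept the adjusted threshold, the adjusted p ranging from 7.0e-06 to 0.0082. In Li2 and Li3 miR395b alone took 6.45% and 6.39% of the reads, and in the Ov samples 0.065% to 0.083%.

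The other member, miR395a, passed the unadjusted threshold only. Its level was 104.7, 472.3 and 730.2 RPM in Li1 to Li3 and 64.9, 94.1 and 16.7 RPM in Ov1 to Ov3. The groups did not overlap, and Li1 was again the lowest Li sample (log2 fold change -2.79, SE 0.85, limma adjusted p = 0.077). Both listed members of the family were thus lower in every Ov sample than in every Li sample.

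The phase change list joined miR156, which represses SPL transcription factors and marks the juvenile phase, and miR172, which represses AP2-like factors and rises as plants mature. Of its 10 tested members, 1 was called, against 3.26% of all tested miRNAs. At the unadjusted threshold 1 was higher and 3 were lower in Ov, where 14.0% and 9.77% of all were. The list's median log2 fold change was -1.25, against -0.01 over all tested miRNAs. miR156a stood at 2451, 4468 and 4547 RPM in Li1 to Li3 and at 471.4, 809.8 and 625.2 RPM in Ov1 to Ov3. The lowest Li value was above the highest Ov value by a wide gap. The mean fell from 3822 ± 1188 to 635.5 ± 169 RPM (SD, n = 3 each), a 6.01-fold lower mean (log2 fold change -2.57, SE 0.39, limma adjusted p = 0.0019). It too passed under all 16 alternatives, with an adjusted p of 0.00058 to 0.021.

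A related member, miR156g, passed the unadjusted threshold only. Its level was 807.0, 1293 and 959.1 RPM in Li1 to Li3 and 270.5, 373.0 and 449.3 RPM in Ov1 to Ov3, without overlap (log2 fold change -1.49, SE 0.41, limma adjusted p = 0.057). The less abundant miR156k and miR156l had log2 fold changes of -1.59 and -1.65, overlapped between the groups and did not pass either threshold. In Li1 to Li3 miR156k had 0, 1 and 3 reads and miR156l 2, 4 and 0. In Ov1 to Ov3 miR156k had no read and miR156l had 1, 0 and 0. The 4 members of the family therefore had negative values, those of miR156k and miR156l on few reads, and 1 member was called.

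The 6 tested miR172 members had log2 fold changes of both signs. The most abundant, miR172a, was at 3562, 3835 and 4318 RPM in Li1 to Li3 and at 10479, 7641 and 4259 RPM in Ov1 to Ov3. The groups overlapped, because Ov3 lay within the Li range while Ov1 and Ov2 were above it. Its log2 fold change of 0.84 (SE 0.34) passed the unadjusted threshold only (limma adjusted p = 0.14), and it missed that one without Li1 (0.78), Li2 (0.83), Ov1 (0.55) or Ov2 (0.78). The low-abundance 5p arm miR172h-5p had 10.1, 25.7 and 19.3 RPM in Li and 3.16, 10.1 and 0 RPM in Ov. Its difference is a matter of a few reads in each sample, and it missed the unadjusted threshold without Li2 (-2.07), Li3 (-2.27), Ov1 (-2.45) or Ov3 (-1.42). The other 4 members passed neither threshold, with log2 fold changes of 1.18 for miR172i (at most 3 reads in a sample), 0.20 for miR172d, -0.85 for miR172b-5p and -1.02 for miR172g-3p. The sum of the family passed neither (log2 fold change 0.66, SE 0.33, limma adjusted p = 0.16).

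Within a library, the ratio of miR156a to miR172a does not depend on the total used for scaling. It was 0.69, 1.17 and 1.05 in Li1 to Li3, and 0.045, 0.11 and 0.15 in Ov1 to Ov3. The lowest Li ratio was thus above the highest Ov ratio. In La it was 0.17 to 0.43 and in Bo 0.022 to 0.032, so the Ov samples lay between those groups without overlap. These ratios are given as a description without a test.

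**Figure D2:**
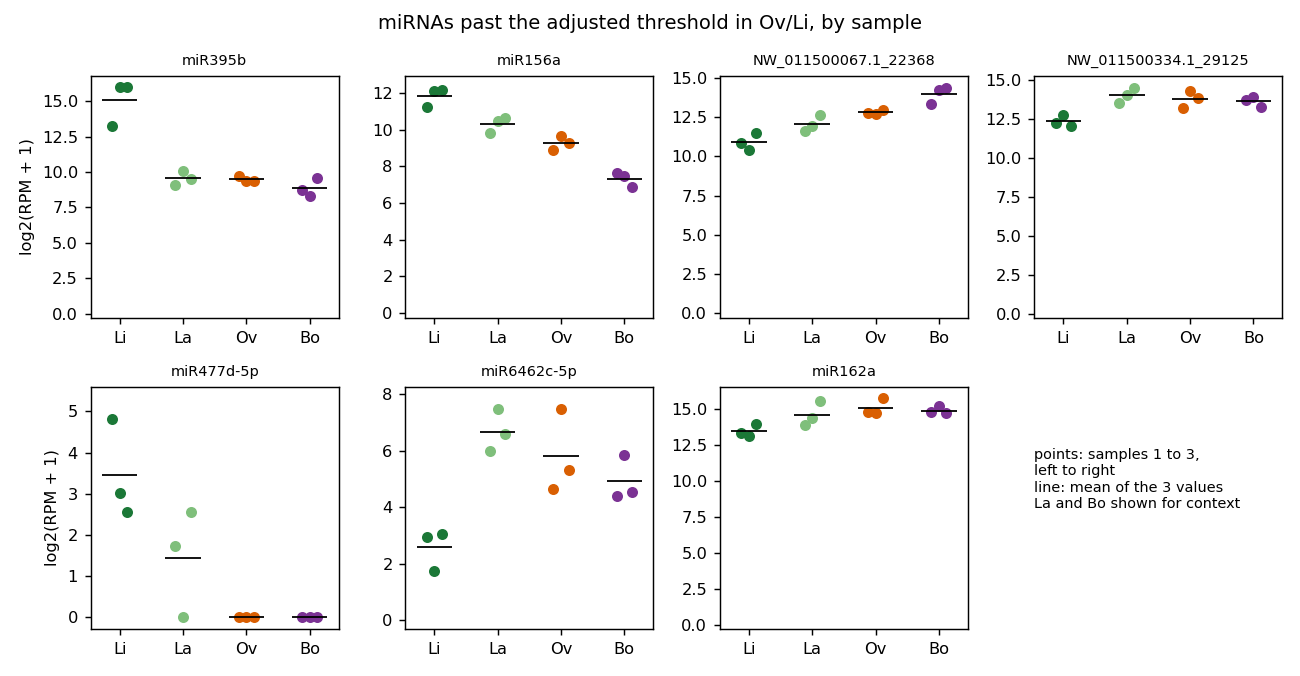
Level of each of the 7 called miRNAs in all 12 samples as log2(RPM + 1) (y axis, from 0), with 1 point per sample and a line at the mean of the 3 values of each leaf type. Li and Ov points do not overlap in any panel; La and Bo are drawn as neighbours in the leaf sequence.

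Among miRNAs that act on the silencing machinery itself, miR162a was called. It targets the mRNA of DCL1, the enzyme that makes most plant miRNAs. Its level was 10366, 8995 and 15705 RPM in Li1 to Li3 and 28827, 27676 and 56288 RPM in Ov1 to Ov3. Every Ov sample was above every Li sample, and Ov3 was the highest. The mean rose from 11689 ± 3545 to 37597 ± 16197 RPM (SD, n = 3 each), 3.22-fold (log2 fold change 1.65, SE 0.41, limma adjusted p = 0.044). The call was lost when any 1 of the 6 samples was left out, with a log2 fold change of 1.31 to 1.88. The adjusted p was 0.12 without Li1 (1.58), 0.14 without Li2 (1.48), 0.050 without Li3 (1.88), 0.071 without Ov1 (1.80), 0.081 without Ov2 (1.83) and 0.19 without Ov3 (1.31). The unadjusted threshold was passed in all 16 alternatives.

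The list of 5 tested members also held miR168, which targets AGO1, and miR403, which targets AGO2. At the unadjusted threshold 2 members were higher and none lower (14.0% and 9.77% over all tested miRNAs), and the median log2 fold change was 0.25, against -0.01 over all. The most abundant, miR403a, had 17099, 17603 and 23135 RPM in Li and 37897, 31218 and 21853 RPM in Ov. Its groups overlapped through Ov3, which lay below Li3 (log2 fold change 0.63, SE 0.26, limma adjusted p = 0.16). It missed the unadjusted threshold without Li1 (0.55), Li2 (0.57), Ov1 (0.45) or Ov2 (0.59). The arms miR168a-5p and miR168a-3p had log2 fold changes of 0.25 and -0.31 and passed neither threshold. Summed, the list took 5.01% to 6.74% of the reads in Li and 8.02% to 10.3% in Ov, without overlap. This sum includes the called miR162a, which alone took 0.90% to 1.57% in Li and 2.77% to 5.63% in Ov. It is therefore not separate evidence for the list.

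The most abundant of the called miRNAs after miR395b and miR162a were a pair of predicted mature miRNAs, NW_011500334.1_29125 and NW_011500067.1_22368, named by scaffold. The precursor of NW_011500334.1_29125 lay at NW_011500334.1:87284-87365 on the minus strand, and that of NW_011500067.1_22368 at NW_011500067.1:59999-60076 on the plus strand, in the deposited coordinates. Their gene context and sequences were not analysed here, and no target is given for them.

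NW_011500067.1_22368 stood at 1844, 1333 and 2848 RPM in Li1 to Li3 and at 6776, 6674 and 7915 RPM in Ov1 to Ov3. The gap between the groups was wider than the spread within either. The mean rose from 2008 ± 771 to 7121 ± 689 RPM (SD, n = 3 each), 3.55-fold (log2 fold change 1.89, SE 0.37, limma adjusted p = 0.014). The call was lost without Li2 (1.63, adjusted p = 0.087), Ov2 (1.94, adjusted p = 0.059) or Ov3 (1.81, adjusted p = 0.071). Its star sequence had at most 9.64 RPM in any of the 6 samples and a log2 fold change of -1.09 (SE 1.17), too few reads to compare.

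NW_011500334.1_29125 stood at 4876, 6952 and 4186 RPM in Li1 to Li3 and at 9492, 19917 and 14971 RPM in Ov1 to Ov3. The groups did not overlap, although Ov1 was nearer to Li2 than to Ov2. The mean rose from 5338 ± 1440 to 14793 ± 5215 RPM (SD, n = 3 each), 2.77-fold (log2 fold change 1.44, SE 0.34, limma adjusted p = 0.044). The adjusted p without 1 sample was 0.089 for Li1 (1.39), 0.068 for Li2 (1.65), 0.10 for Li3 (1.28), 0.090 for Ov2 (1.19) and 0.12 for Ov3 (1.40), so the call was lost in each case but not without Ov1. The star sequence of this precursor was well measured, with 739.5, 1410 and 624.1 RPM in Li and 424.0, 1190 and 918.2 RPM in Ov. It overlapped between the groups (log2 fold change -0.16, SE 0.42, limma adjusted p = 0.85).

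The 2 remaining called miRNAs rested on few reads. miR477d-5p had 27.0, 7.01 and 4.82 RPM in Li1 to Li3, which were 8, 3 and 2 reads, and no read in any Ov sample. Against 3 reads over the Ov group, it was 4.90-fold lower in Ov, with the Li reads taken as exact (limma adjusted p = 0.044). With counting error in both groups, the 95% interval of the pooled reads scaled to depth began at 3.45-fold lower. The bound against 3 reads was 2.55-fold without Li1, which held most of the reads, and 2.496-fold without Ov1, the deepest sample. The fitted log2 fold change, which for a group at 0 depends on the pseudocount, was -3.45, and -2.77 without Li1. The call was lost without Li2 (-3.67, adjusted p = 0.092), Ov1 (-3.45, adjusted p = 0.092), Ov2 (-3.45, adjusted p = 0.090) or Ov3 (-3.45, adjusted p = 0.077). miR6462c-5p had 2, 1 and 3 reads in Li (6.75, 2.34 and 7.23 RPM) and 15, 52 and 14 reads in Ov (23.7, 174.7 and 39.1 RPM). All Ov values were above all Li values, with Ov2 far above the others, and the ratio of the pooled reads scaled to depth was 11.9 (95% interval 5.25 to 33.5, counting error only). This ratio was 5.56 (2.27 to 16.4) without Ov2, which held 52 of the 81 Ov reads, and 19.1 (8.32 to 53.9) without Ov1. Its log2 fold change was 3.23 (SE 0.80, limma adjusted p = 0.044), and the call was lost without Li1 (3.41, adjusted p = 0.072), Li2 (2.81, adjusted p = 0.14), Li3 (3.46, adjusted p = 0.066), Ov2 (2.40, adjusted p = 0.090) or Ov3 (3.46, adjusted p = 0.10). Without Ov1 the call held, at 3.81.

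Beside their neighbours in the leaf sequence, the 7 called miRNAs were also compared in Ov/La and Bo/Ov. None of the 7 passed the adjusted threshold in Ov/La, where 0.00% of the 215 miRNAs did, and 1 of the 7 passed the unadjusted one, as did 1.86% of all. In Bo/Ov 1 of the 7 passed the adjusted threshold, against 2.79% of all, and 2 passed the unadjusted one, against 14.9% of all. The mean of miR395b in La, Ov and Bo was 781.4, 718.6 and 495.7 RPM, with a log2 fold change of -0.07 in Ov/La (limma adjusted p = 1.0). Each Li sample was above every sample of the other leaf types for this miRNA.

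For miR156a the values instead followed the leaf sequence, with means of 3822, 1305, 635.5 and 161.8 RPM from Li to Bo. The step from Ov to Bo was called (log2 fold change -1.97, SE 0.39, limma adjusted p = 0.010), while that from La to Ov, at -1.04, passed the unadjusted threshold only (limma adjusted p = 0.96). NW_011500067.1_22368 also followed the sequence upwards, with means of 2008, 4458, 7121 and 16467 RPM from Li to Bo. Its Bo/Ov log2 fold change of 1.15 passed the unadjusted threshold only (limma adjusted p = 0.15). The means of miR162a (28624 RPM in La and 30921 in Bo) and NW_011500334.1_29125 (17185 RPM in La and 13064 in Bo) were near those of Ov. The La mean of miR162a was raised by La3, with 15094, 21936 and 48841 RPM in La1 to La3. For this miRNA La1 lay within the Li range and La2 below every Ov value. These comparisons share samples with Ov/Li and are set side by side without a test of their difference.

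At the unadjusted threshold the TCP regulator miR319 was higher in Ov. It represses TCP factors that limit cell division at the leaf margin, and its loss or excess alters leaf shape in Arabidopsis. miR319a had 20256, 26432 and 23072 RPM in Li1 to Li3 and 54843, 39037 and 66207 RPM in Ov1 to Ov3. The groups did not overlap and the Ov mean was 2.30-fold the Li mean (log2 fold change 1.17, SE 0.32, limma adjusted p = 0.057). All 3 listed miR319 members passed the unadjusted threshold, with miR319i at a log2 fold change of 1.24 and miR319e at 0.78. Their summed level was called in the family test described below.

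The related miR159, which represses GAMYB-type factors, was the most abundant miRNA of all. miR159a had 331472, 367760 and 365510 RPM in Li and 309481, 383564 and 369996 RPM in Ov. The groups overlapped fully, and the 95% interval of the log2 fold change, -0.36 to 0.35, excludes a change of the size seen in miR319a. In the list of both families 3 of 5 tested members, all miR319, were higher at the unadjusted threshold and none was lower, where 14.0% and 9.77% of all tested miRNAs were.

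**Figure D3:**
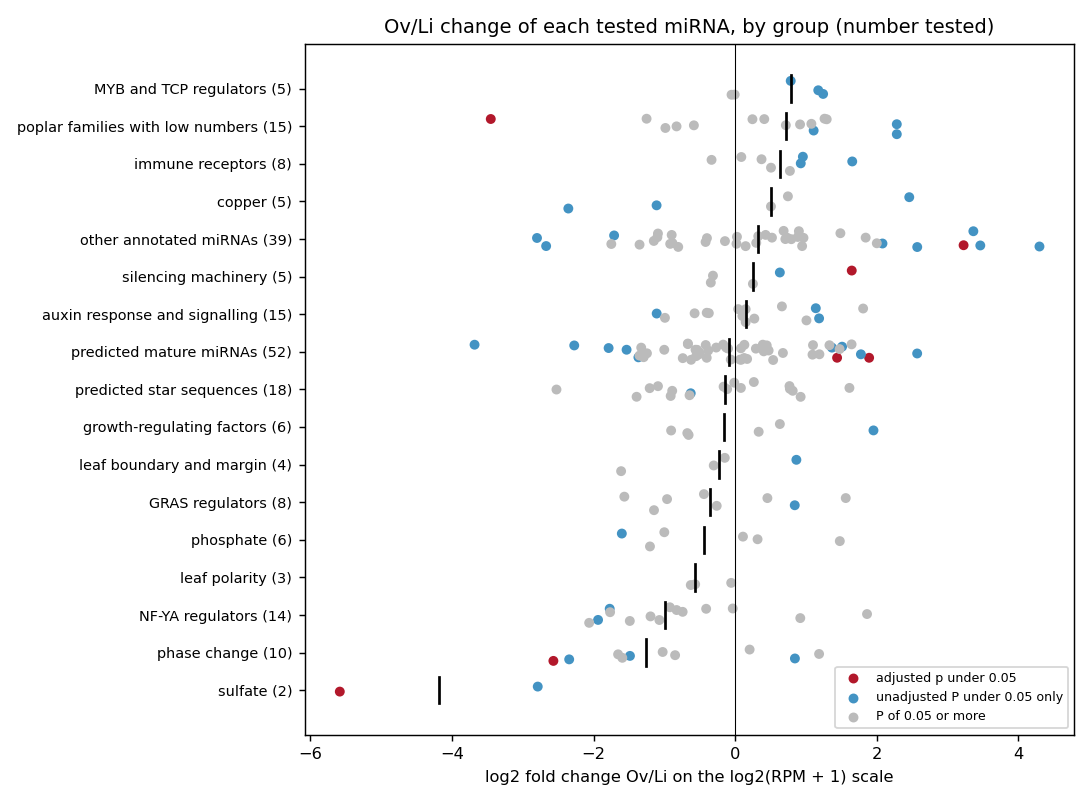
Log2 fold change Ov/Li (x axis) of every tested miRNA in each functional list (y axis), with 1 point per miRNA, spread vertically for legibility, and a black mark at the list's median. Red points passed the adjusted and blue points only the unadjusted threshold; both sulfate members lie below -2, and the phase change list has a median of -1.25 against -0.01 over all tested miRNAs.

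The leaf polarity list held miR166, whose targets are the HD-ZIP III factors of the upper leaf side. None of its 3 tested members passed either threshold. Its leading member miR166a had 153607, 116973 and 110096 RPM in Li and 158992, 101923 and 108649 RPM in Ov (log2 fold change -0.06, 95% interval -0.54 to 0.43). The values overlapped and the highest of each group was its replicate 1.

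Of 4 tested members of the leaf boundary and margin list, 1 was higher at the unadjusted threshold, where 14.0% of all tested miRNAs were. miR394a-5p, which targets the F-box gene LCR, had 7769, 6339 and 5767 RPM in Li and 18410, 8468 and 10994 RPM in Ov, without overlap (log2 fold change 0.86, SE 0.31, limma adjusted p = 0.12). Without Li3 (0.77) or Ov1 (0.55) it missed the unadjusted threshold. Its 3p arm had a log2 fold change of -1.61 that passed neither.

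Growth-regulating factors are the targets of miR396. Of 6 tested members, 1 was higher at the unadjusted threshold (14.0% over all tested miRNAs), the 3p arm miR396g-3p, with 84.4, 37.4 and 81.9 RPM in Li and 246.8, 147.9 and 427.0 RPM in Ov. Its groups were well separated (log2 fold change 1.95, SE 0.58, limma adjusted p = 0.071), while the 5p arm of the same precursor had a log2 fold change of -0.68 and passed neither threshold. The most abundant member, miR396c, had 35571.5, 21709 and 20267 RPM in Li and 23230.0, 15955 and 6442 RPM in Ov. It overlapped between the groups (log2 fold change -0.90, SE 0.54, limma adjusted p = 0.34) and passed the unadjusted threshold only when Ov1 was left out (-1.30).

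The auxin list of 15 tested members joined miR160 and miR167, which target auxin response factors, miR390, which starts the trans-acting RNA route to other such factors, and miR393, which targets auxin receptors. At the unadjusted threshold 2 members were higher and 1 was lower, close to the 14.0% and 9.77% over all tested miRNAs, with a median log2 fold change of 0.15. miR160e-3p had 273.5, 268.9 and 400.0 RPM in Li and 927.0, 759.4 and 494.0 RPM in Ov. The groups did not overlap (log2 fold change 1.19, SE 0.44, limma adjusted p = 0.13), but the unadjusted threshold was missed without Li2 (1.09) or Ov1 (0.99). Its 5p arm gave a log2 fold change of 1.14 and was the other higher member, so both higher members came from the same precursor.

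miR390d-3p was the lower member of the auxin list, with 3066, 2411 and 1909 RPM in Li and 1766, 1042 and 764.7 RPM in Ov. The ranges came close, and it missed the unadjusted threshold without Li1 (-0.94), Ov2 (-1.06) or Ov3 (-0.83). The most abundant member miR390a overlapped between the groups, at 9461 to 15753 RPM in Li and 6079 to 12287 RPM in Ov (log2 fold change -0.57, SE 0.32). It passed the unadjusted threshold only without Li1 (-0.77) or Ov1 (-0.85).

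Of 8 tested members of miR171, which represses GRAS factors of the SCL6 kind, 1 was higher at the unadjusted threshold (14.0% over all tested miRNAs). miR171e had 783.4, 752.9 and 1277 RPM in Li and 1538, 1341 and 2104 RPM in Ov, without overlap (log2 fold change 0.84, SE 0.35, limma adjusted p = 0.16). It missed that threshold without Li1 (0.73), Li2 (0.70) or Ov3 (0.66).

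The miR169 family, which targets NF-YA subunits, had a median log2 fold change of -0.996 over 14 tested members, of which 2 were lower at the unadjusted threshold (9.77% over all tested miRNAs). All its members were of low abundance, together at most 0.036% of the reads. miR169d had 40.5, 32.7 and 26.5 RPM in Li and 11.1, 20.2 and 2.79 RPM in Ov, and missed the unadjusted threshold without Li1 (-1.62), Li2 (-1.77) or Ov3 (-1.08). miR169n-5p rested on 1 or 2 reads per Li sample and missed it without Li2 (-1.88), Li3 (-1.86) or Ov2 (-1.71). The most abundant member, miR169n-3p, overlapped between the groups (log2 fold change -0.83, SE 0.81).

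Among miRNAs of phosphate supply, miR399f, a repressor of the phosphate regulator PHO2, had 901.5, 1080 and 1882 RPM in Li and 574.3, 221.8 and 513.5 RPM in Ov. It was lower in every Ov sample (log2 fold change -1.60, SE 0.50, limma adjusted p = 0.077), and its mean in Bo, 890.3 RPM, was near the lower Li values. It was the only 1 of 6 tested list members past the unadjusted threshold (9.77% lower over all tested miRNAs). The most abundant, miR827, also did not overlap, with 1151 to 3559 RPM in Li and 614.0 to 1122 RPM in Ov, but passed neither threshold (log2 fold change -1.20, SE 0.60).

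Of 5 tested members of the copper list, 1 was higher and 2 were lower at the unadjusted threshold, against 14.0% and 9.77% of all tested miRNAs. miR408-3p, which targets copper proteins such as plantacyanin, had 16.9, 9.35 and 9.64 RPM in Li and 36.4, 80.6 and 106.1 RPM in Ov. It was higher in every Ov sample (log2 fold change 2.46, SE 0.64, limma adjusted p = 0.053) and kept the unadjusted threshold whichever sample was left out. miR398a, which targets copper/zinc superoxide dismutases, had 54.0, 357.8 and 385.6 RPM in Li and 36.4, 47.0 and 30.7 RPM in Ov. It was lower in every Ov sample (log2 fold change -2.36, SE 0.84), with Li1 nearest to the Ov values, and missed the unadjusted threshold without Li2 (-1.92), Li3 (-1.87) or Ov3 (-2.22). The more abundant miR398b overlapped between the groups, at 243.1 to 409.2 RPM in Li and 112.3 to 252.0 RPM in Ov (log2 fold change -1.11, SE 0.51, limma adjusted p = 0.20), and it missed the unadjusted threshold without Li2 (-0.96), Li3 (-1.03), Ov1 (-0.88) or Ov3 (-0.98).

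The immune receptor list, miR472 and miR482, targets mRNAs of the NBS-LRR class of disease resistance proteins. Of its 8 tested members 3 were higher at the unadjusted threshold and none was lower, against 14.0% and 9.77% of all tested miRNAs, and the median log2 fold change was 0.64. Summed, the list took 3.90% to 5.38% of the reads in Li and 6.94% to 10.8% in Ov, without overlap. Its most abundant member, miR472b, alone took 2.22% to 3.47% in Li and 3.99% to 7.52% in Ov. The sum is therefore not separate evidence for the list. miR482b-3p had 408.6, 593.9 and 843.4 RPM in Li and 1392, 1462 and 3140 RPM in Ov, every Ov value above every Li value (log2 fold change 1.65, SE 0.50, limma adjusted p = 0.076).

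The most abundant member of that list, miR472b, had 25742, 22160 and 34740 RPM in Li and 39879, 45321 and 75247 RPM in Ov. It did not overlap, and Ov3 was by far the highest (log2 fold change 0.93, SE 0.30, limma adjusted p = 0.094). Without Ov3 it missed the unadjusted threshold (0.65). miR482c-3p had 4511, 3398 and 4731 RPM in Li and 9906, 5501 and 9718 RPM in Ov, again without overlap (log2 fold change 0.96, SE 0.35, limma adjusted p = 0.13), and missed it without Li2 (0.81), Ov1 (0.81) or Ov3 (0.82).

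Families described first in poplar and its relatives, with names from miR473 to miR481, had 15 tested members. At the unadjusted threshold 3 were higher and 1, the called miR477d-5p, was lower, which is near the 14.0% and 9.77% over all tested miRNAs, and the median log2 fold change was 0.72. miR473a-3p had 145.2, 121.6 and 554.3 RPM in Li and 987.2, 574.6 and 2012 RPM in Ov. The groups came close, with Li3 just below Ov2 (log2 fold change 2.28, SE 0.77, limma adjusted p = 0.098), and it missed the unadjusted threshold without Li1 (2.0) or Ov3 (1.81). The most abundant member, miR475a-3p, had 1732, 1950 and 2658 RPM in Li and 4297, 3024 and 6927 RPM in Ov (log2 fold change 1.11, SE 0.42, limma adjusted p = 0.13), and missed it without Li1 (0.98), Li2 (1.06) or Ov3 (0.79).

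**Figure D4:**
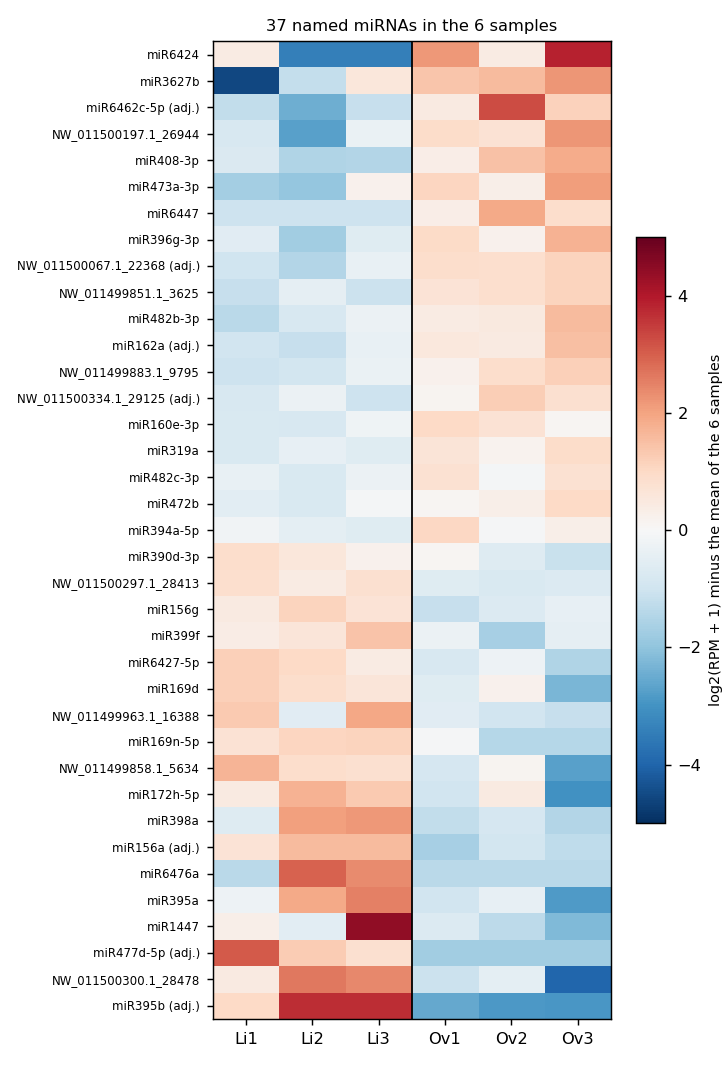
Deviation of log2(RPM + 1) from the mean of the 6 samples (colour, from -5 to 5) for the 37 miRNAs named because they passed a threshold, with 1 row per miRNA and 1 column per Li and Ov sample. In 34 of the 37 rows the 3 Ov samples lie on 1 side of the 3 Li samples; the chosen rows were selected on this contrast, so the split itself is not a finding.

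Of 39 tested annotated miRNAs outside these lists, 1 was called (miR6462c-5p), and 6 were higher and 3 lower at the unadjusted threshold, near the 14.0% and 9.77% over all tested miRNAs. Their median log2 fold change was 0.33, and no role is given for them here. miR6424 had reads in every Ov sample (47.5, 13.4 and 156.3 RPM) and in Li1 only (13.5 RPM), so the groups overlapped (log2 fold change 4.30, SE 1.14, limma adjusted p = 0.053). miR3627b had 0, 9.35 and 33.7 RPM in Li and 60.1, 70.6 and 108.8 RPM in Ov, without overlap (log2 fold change 3.46, SE 1.01, limma adjusted p = 0.068). miR6447 had no read in Li and only 1, 2 and 1 reads in Ov, below what this depth can compare.

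Of those lower in Ov, miR6427-5p had 1107, 965.7 and 645.8 RPM in Li and 278.4, 413.3 and 170.2 RPM in Ov. It did not overlap (log2 fold change -1.71, SE 0.57, limma adjusted p = 0.097) and missed the unadjusted threshold without Ov3 (-1.38). miR1447 had 665.2, 383.5 and 11741 RPM in Li and 338.5, 221.8 and 117.2 RPM in Ov. Its Li mean rested on Li3, and it missed the unadjusted threshold without Li3 (-1.29) or Ov3 (-2.39). miR6476a had reads in Li2 and Li3 only (18.7 and 12.0 RPM), and missed it without Li2 (-1.85), Li3 (-2.15) or any 1 of the Ov samples (-2.67). The most abundant miRNA of this kind, miR6445a, overlapped between the groups at 32434 to 42764 RPM in Li and 12504 to 38661 RPM in Ov (log2 fold change -0.88, SE 0.43, limma adjusted p = 0.23) and passed the unadjusted threshold only without Ov2 (-1.35).

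Among the 52 predicted mature miRNAs tested, 2 were called, 6 were higher and 5 lower at the unadjusted threshold, near the 14.0% and 9.77% over all tested miRNAs, and the median log2 fold change was -0.08. NW_011499883.1_9795 had 81.0, 88.9 and 135.0 RPM in Li and 193.0, 312.5 and 379.6 RPM in Ov (log2 fold change 1.51, SE 0.43, limma adjusted p = 0.063). NW_011500197.1_26944 had 20.3, 4.68 and 28.9 RPM in Li and 69.6, 60.5 and 173.0 RPM in Ov (log2 fold change 2.57, SE 0.75, limma adjusted p = 0.068). NW_011499851.1_3625 had 6.75, 11.7 and 7.23 RPM in Li and 26.9, 30.2 and 36.3 RPM in Ov (log2 fold change 1.78, SE 0.64, limma adjusted p = 0.12). None of these 3 overlapped between the groups, and each kept the unadjusted threshold whichever sample was left out.

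In the lower direction, NW_011500297.1_28413 had 381.5, 285.3 and 366.3 RPM in Li and 140.8, 124.3 and 131.2 RPM in Ov, with the 3 Ov samples close together (log2 fold change -1.37, SE 0.44, limma adjusted p = 0.091). NW_011500300.1_28478 had 20.3, 95.9 and 81.9 RPM in Li and 6.33, 10.1 and 0 RPM in Ov (log2 fold change -3.68, SE 1.28), and missed the unadjusted threshold without Ov3 (-2.62). NW_011499858.1_5634 had 796.9, 451.3 and 424.1 RPM in Li and 136.1, 265.5 and 36.3 RPM in Ov, without overlap. It missed that threshold without Li1 (-1.98), Li2 (-2.39), Li3 (-2.44), Ov1 (-2.43) or Ov3 (-1.49). NW_011499963.1_16388 overlapped between the groups at 2.79 to 31.3 RPM over the 6 samples and missed it without Li1 (-1.57), Li3 (-1.27) or Ov2 (-1.75).

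The most abundant predicted miRNA, NW_011499886.1_10127, had a log2 fold change of -0.10 (SE 0.27, 95% interval -0.68 to 0.48). Its star sequence, at 7719, 5991 and 7316 RPM in Li and 4994, 4772 and 3849 RPM in Ov, did not overlap between the groups and had a log2 fold change of -0.63 (SE 0.29, limma adjusted p = 0.20). It was the 1 of 18 tested star sequences past the unadjusted threshold, where 9.77% of all tested miRNAs were lower. That threshold was missed without Li1 (-0.55), Li3 (-0.59), Ov2 (-0.67) or Ov3 (-0.51).

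Both arms of a precursor are made together, so they were set side by side where both were tested. Of 35 such precursors, 22 had arms with the same sign of change. With a median log2 fold change of -0.01 over all tested miRNAs, many pairs would match in sign without any link, and this count was not tested. Both arms passed the unadjusted threshold in 2 of the 35, miR160e and miR473a, each with both arms higher in Ov. Of all single miRNAs tested, 23.7% passed it. For miR473a the log2 fold changes were 2.28 for both arms.

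Reads that match several members of a family may be counted in more than 1 way, which the sources used here do not describe. Members were therefore also summed over each of the 64 annotated families whose mean reached 1 RPM, and the same limma fit was run on the sums. In this test 9 families were called (14.1%), 7 higher and 2 lower in Ov, and 23 (35.9%) passed the unadjusted threshold. With median-ratio scaling in place of a common total, 6 of 9 called families were higher and 3 lower. The lower families were miR395 (log2 fold change -5.49, SE 0.63, limma adjusted p = 7.3e-05) and miR156 (-2.26, SE 0.34, adjusted p = 0.00072). These families were called under every alternative tried for families.

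Among the higher families, miR319 summed to 32631, 45431 and 38078 RPM in Li and 83670, 62865 and 92643 RPM in Ov, a log2 fold change of 1.04 (SE 0.29, limma adjusted p = 0.035). miR475, known in poplar for targeting pentatricopeptide repeat mRNAs, summed to 1928, 2247 and 3048 RPM in Li and 4681, 4936 and 7279 RPM in Ov. Its log2 fold change was 1.22 (SE 0.34, limma adjusted p = 0.035). The Ov2 sum was raised by miR475a-5p, with 526 reads there at 3.36 RPM each, against 116 reads in Ov1 and 78 in Ov3. That arm passed neither threshold among the miRNAs. Neither family had a single member past the adjusted threshold over all miRNAs, and neither overlapped between the groups. The family test was adjusted over 64 families, and that of single members over 215 miRNAs. For miR319 the unadjusted limma P was 0.0035 for the sum and 0.0029 for miR319a alone. The single-member family miR6424 had a limma adjusted p of 0.035 in the family test and 0.053 among the miRNAs. The family miR6462, with 3 listed members, had a log2 fold change of 2.34 (SE 0.68, limma adjusted p = 0.036). The single-member families miR162, miR6424 and miR6447 and the 2-member family miR3627 completed the called set, of which miR6447 rests on 4 reads in all.

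Next in order came miR472 (log2 fold change 0.82), miR408 (1.87) and miR398 (-1.53), each with a limma adjusted p of 0.052, and miR399 (-1.53, adjusted p = 0.054). The called families numbered 5 without Li1, 2 without Li2 and 3 without Ov3, and the families lost without Li2 or Ov3 were all higher ones.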

How the data were processed

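Small RNA from 3 Li and 3 Ov samples was compared, with the 3 La and 3 Bo samples in the same fit. The authors named known miRNAs by exact matches to miRBase v.21, took unannotated ones and stars from miRDeep2 (version not given in the sources used here) and deposited 1 RPM value (named TPM by them) per miRNA and sample. Within 0.001, all values were whole multiples of the smallest; these reads gave depths and intervals but, having too few low values per sample, no count test. No library was a copy of another (chi-square per degree of freedom at least 82.0).

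limma 3.58.1 (R 4.3.3) with a variance trend was fitted on log2(RPM + 1) of 4 group means, 2-sided, and tested on simulated data. Named were every called miRNA, up to 15 further miRNAs per direction by unadjusted P, the most abundant member of each list, and the stars of called miRNAs. The values of miR319e, miR319i, miR156k, miR156l, further miR172 members, both miR168a arms and arms of named precursors were added after their values were seen. Members and lists were chosen with earlier results of these data known. The correlations of deviations of same-numbered Li and Ov samples (0.02, 0.08 and 0.07) did not reach 0.1, the minimum for treating the numbers as pairs, so the replicate block stayed an alternative. Alternatives were other pseudocounts, filters, scalings, fits, thresholds and each sample left out; for pooled reads of miR477d-5p and miR6462c-5p the last was chosen after seeing the data. Python 3.11.15, pandas 2.3.3, numpy 2.4.6, scipy 1.17.1 and matplotlib 3.10.9 did the rest.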

Additional observations from a re-analysis of the deposited data

How the results depend on the processing

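The count of 7 called miRNAs was 12 with a pseudocount of 0.1, 3 with 10, 14 with a mean of at least 10 RPM, 3 with a total that left out miR159a, 4 in a fit of only the 6 samples, and 51 at the unadjusted threshold. The replicate numbers are shared without a stated pairing. With the replicate block in all 12 samples the count was 21 and in the 6 samples 8. Every Li and Ov sample correlated best with its own number, but only at 0.02, 0.08 and 0.07, under the minimum of 0.1. For Ov1 the values were 0.023 with Li1 and 0.021 with Li2. Correlations this small cannot decide whether the numbers mark pairs. Leaving out 1 sample gave 2 to 12. The count at the unadjusted threshold was 34 to 53 over all alternatives. The 9 called families became 4 in a fit of only the 6 samples, 15 with the replicate block, 23 at the unadjusted threshold, and 2 to 11 without 1 sample. At the unadjusted threshold 1 of the called miRNAs passed in Ov/La and 2 in Bo/Ov.

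Of the 7 called miRNAs, miR395b and miR156a passed in every alternative; none of the 7, nor of the 30 named at the unadjusted threshold, changed sign, and 13 of those 30 passed that threshold in every alternative. Signs turned only for values near 0, when 1 sample was left out. The log2 fold change of miR159a (-0.01) then ranged from -0.067 to 0.088, that of miR166a (-0.06) from -0.25 to 0.090, that of NW_011499886.1_10127 (-0.10) from -0.23 to 0.11 and that of the star of NW_011500334.1_29125 (-0.16) from -0.47 to 0.27. The causes were not tested. Depth limits the miRNAs at a few reads, among them miR477d-5p, miR6447, miR6476a and miR169n-5p.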
